A study of Mus musculus with 12 samples.

Results

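Corticosteroid signalling in the mouse kidney was followed through 9 genes of the 38924 in the count files, chosen by symbol for their roles. They were the corticoid receptors (Nr3c1 and Nr3c2), both 11-beta-hydroxysteroid dehydrogenases (Hsd11b1 and Hsd11b2) and 5 genes that glucocorticoids induce (Sgk1, Tsc22d3, Fkbp5, Klf9 and Zbtb16). All 9 passed the filter on low counts that left 16150 genes for testing. RNA came from whole kidneys of wild-type (WT) littermates and of mice in which Arntl, the gene of the clock factor BMAL1, had been deleted in tubule cells (KO), at zeitgeber time 4 (ZT4, in the light phase) and ZT16 (in the dark phase), with 3 libraries in each of the 4 groups. The KO mice were Bmal1lox/lox/Pax8-rtTA/LC1 animals on a C57BL/6J background. In this model doxycycline turns on Cre recombinase in cells with an active Pax8 promoter, which covers the tubule, so the other cells of the kidney kept the gene. The drug was given at 2 mg/ml in the drinking water for 2 weeks, starting at 8 weeks of age. The light cycle was 12 h of light and 12 h of dark. Which alleles the WT littermates carried, whether they drank doxycycline and the age at sampling were left unstated in the labels. Nothing in the labels ties each library to its own animal, so the spread behind the p-values is one between libraries and may be partly technical.

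The glucocorticoid receptor, encoded by Nr3c1, waits in the cytoplasm in a complex with heat shock chaperones, moves to the nucleus when it binds corticosterone and there activates genes through palindromic response elements. The mineralocorticoid receptor, encoded by Nr3c2, binds aldosterone and corticosterone about equally well, so the hormone that reaches it in the distal nephron is set by enzymes inside the cell. The type 2 dehydrogenase (Hsd11b2) inactivates corticosterone there, and the type 1 enzyme (Hsd11b1) works mostly in the opposite direction and regenerates it. In nocturnal rodents circulating corticosterone rises towards the start of the dark phase.

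Gene counts ranged from 25628887 to 38043491 per library. KO ZT16 replicate 2 stood apart from its group: on the first principal component (46.7% of the variance) it lay at 43.0, against -9.74 and -11.8 for KO ZT16 replicates 4 and 6. Mitochondrially encoded genes took 22.3% of its counts, against 14.1% and 14.0% in those replicates. Values without it are therefore given beside many results. On that component it lay within the range of the WT ZT16 libraries (29.8, 25.1 and 49.0). Leaving it out thus removes the KO ZT16 library nearest to WT ZT16 on that component. Arntl counts add all exons and all cell types, and its log2 fold change was -0.08 ± 0.14 (SE) at ZT4 and 0.43 ± 0.15 at ZT16, so they do not check the genotype labels. Markers of the proximal tubule, thick ascending limb, distal convoluted tubule, principal cells and intercalated cells were abundant, and other tubule segments were not examined. Of 7 adrenal cortex markers, Cyp11b1 and Cyp11b2 had 0 counts in every library (a count of 0 allows up to 0.117 CPM in the smallest library) and the 7 together reached 0.613 to 1.16 CPM (CPM, a count scaled to the size of its library).

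Per kilobase of exon, which allows levels of different genes to be compared, Hsd11b2 was the most abundant of the 9 at a mean of 47.4 CPM per kb over the 12 libraries. Sgk1 (33.3) and Hsd11b1 (31.2) followed, then Tsc22d3 (16.6), Klf9 (15.7) and Nr3c1 (15.1). Fkbp5 (6.94) and Nr3c2 (2.76) were lower, and Zbtb16 was lowest at 0.602. From Hsd11b2 down to Nr3c1, neighbours in this order overlapped across libraries, while Nr3c1, Fkbp5, Nr3c2 and Zbtb16 did not overlap each other.

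**Figure D1:**
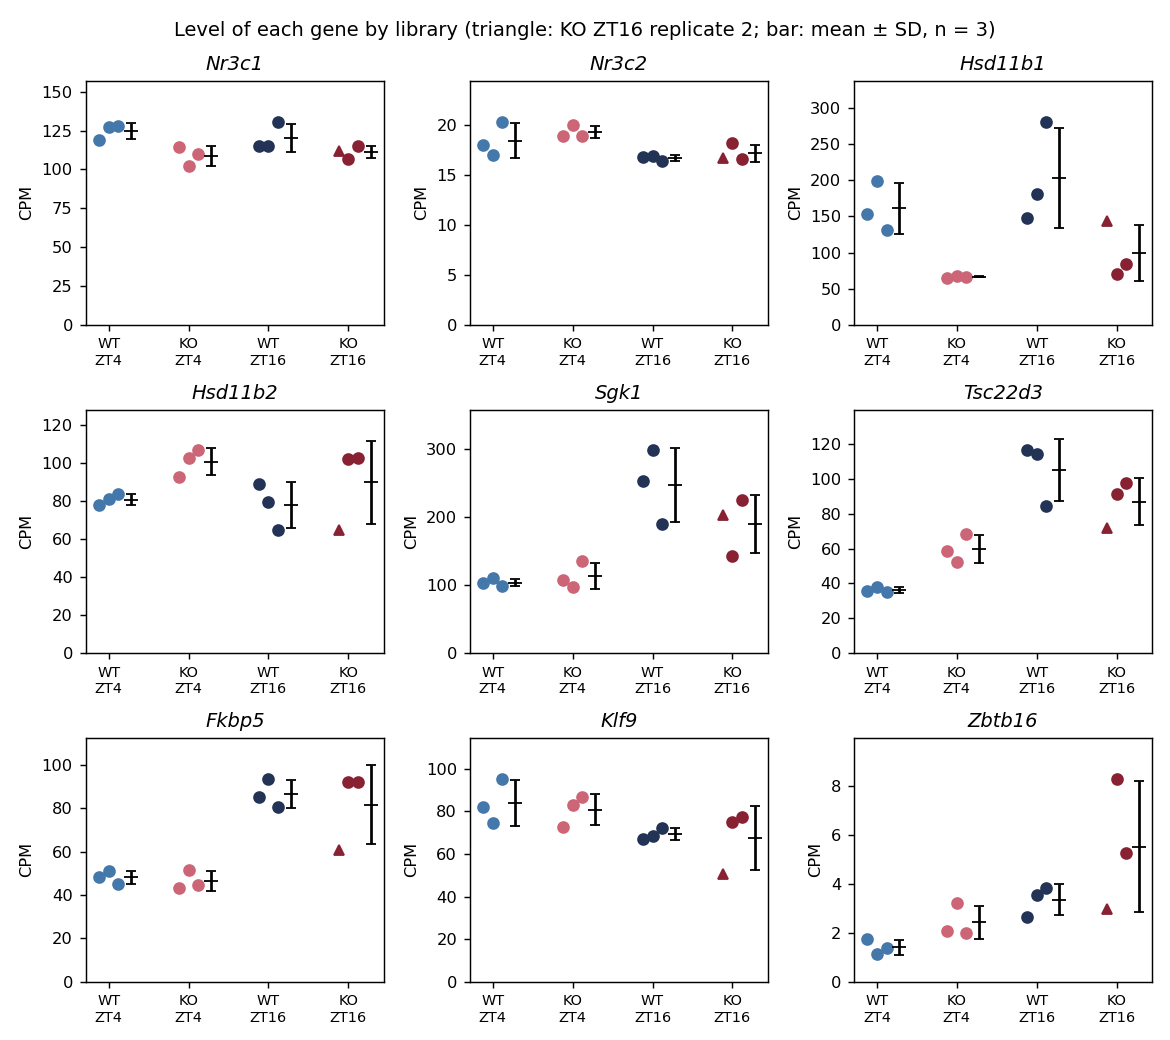
Level of each of the 9 genes in the 12 libraries, 1 panel per gene, in CPM from 0 (vertical axis) by group (horizontal axis), with mean ± SD (n = 3) and a triangle for KO ZT16 replicate 2. Sgk1, Tsc22d3 and Fkbp5 stand higher at ZT16 in WT, Hsd11b1 is lower in KO at ZT4, and Nr3c1 and Nr3c2 stay within narrow ranges.

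Differences were tested with edgeR's quasi-likelihood test in 1 fit of all 12 libraries, with Benjamini-Hochberg adjustment over all tested genes. A gene was called at an adjusted p under 0.05, and errors of log2 fold changes are SE. At ZT4 2 of the 9 genes were called between genotypes (3.29% of all tested genes were). At ZT16 0 of 9 were (4.03% of all genes by edgeR), with 2 at an unadjusted p under 0.05 and 1 called by DESeq2 and by limma voom. Averaged over both times 1 of 9 was called (11.4% of all genes). Between the times, 3 of 9 were called in WT (6.5% of all genes) and 4 of 9 in KO (10.5% of all genes), each higher at ZT16. Leaving out KO ZT16 replicate 2, the counts became 3 at ZT4 (15.3% of all genes), 3 at ZT16 (31.2%), 5 averaged (42.4%), 5 in WT (33.5%) and 4 in KO (8.0%). Library values of the compared groups did not overlap for 5 genes at ZT4 (37.7% of all genes), 1 at ZT16 (15.9%), 6 between the times in WT (42.6%) and 5 in KO (43.3%).

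The receptor genes differed little between groups. Nr3c1 (chromosome 18, 39410545 to 39519421, minus strand, GRCm38) had 118.9, 127.6 and 127.7 CPM in WT ZT4 replicates 1, 3 and 5, and 114.3, 102.0 and 110.1 CPM in KO ZT4 replicates 2, 4 and 6. The ZT16 values were 115.1, 115.0 and 130.8 CPM in WT and 111.6, 107.0 and 115.2 CPM in KO, in the same replicate order. The KO libraries lay below the WT libraries at ZT4 and overlapped them at ZT16. The log2 fold change in KO (n = 3 against 3, edgeR's test) was -0.20 ± 0.08 at ZT4, with an adjusted p of 0.218, and -0.11 ± 0.08 at ZT16, with an adjusted p of 0.531. Averaged over both times it was -0.16 ± 0.06 (adjusted p = 0.0968), and it was called once KO ZT16 replicate 2 was left out (-0.16, adjusted p = 0.0252). Between the times the receptor gene changed by -0.05 ± 0.08 in WT and 0.03 ± 0.08 in KO, neither called.

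Nr3c2 (chromosome 8, 76899442 to 77245012, plus strand) had 18.01, 16.95 and 20.31 CPM in WT ZT4 and 18.86, 19.96 and 18.92 CPM in KO ZT4. The ZT16 values were 16.81, 16.90 and 16.33 CPM in WT and 16.69, 18.13 and 16.60 CPM in KO. The genotypes overlapped at both times, with log2 fold changes of 0.06 ± 0.09 and 0.04 ± 0.09. In each genotype the ZT16 libraries lay below the ZT4 libraries, by -0.14 ± 0.09 in WT (adjusted p = 0.267) and -0.17 ± 0.09 in KO (adjusted p = 0.176), and neither difference passed edgeR's test. Of its exonic bases, 3.82% are shared with Gm10649 on the opposite strand, and the strand setting of the counting is not stated.

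The dehydrogenases moved in opposite directions between genotypes, and only Hsd11b1 passed the test with all 12 libraries. Hsd11b1 (chromosome 1, 193221634 to 193264075, minus strand) had 152.7, 199.5 and 130.6 CPM in WT ZT4, and 65.45, 66.89 and 66.64 CPM in KO ZT4. Values at ZT16 were 147.6, 181.2 and 281.1 CPM in WT and 144.0, 69.82 and 84.77 CPM in KO replicates 2, 4 and 6. Every KO library lay below every WT library of its time, with KO ZT16 replicate 2 only just below the lowest of them.

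Hsd11b1 was lower in KO by -1.28 ± 0.27 at ZT4 on the log2 scale (adjusted p = 0.0258), by -1.03 ± 0.27 at ZT16 (adjusted p = 0.0583) and by -1.15 ± 0.19 averaged over the times (adjusted p = 0.00235, edgeR). In whole-kidney RNA, fewer cells that express a gene and less RNA per cell cannot be told apart. The averaged difference stayed called when each of the 12 libraries was left out in turn. The ZT4 call was lost without WT ZT4 replicate 1 (adjusted p = 0.0758) or 3 (0.119), and without KO ZT4 replicate 2 (0.104), 4 (0.106) or 6 (0.105), at values between -1.31 and -1.10. The ZT16 difference passed without KO ZT16 replicate 2 (-1.41, adjusted p = 0.000692) and without WT ZT16 replicate 1 (-1.22, 0.0461), and was -0.73 (0.247) without WT ZT16 replicate 5.

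The libraries with the most Hsd11b1 at ZT16 in each genotype, WT replicate 5 and KO replicate 2, were also those with the largest mitochondrial shares (22.4% and 22.3%, against 14.0% to 18.8% in the other ZT16 libraries). At ZT4 the share was 12.6% to 12.8% in KO and 16.3% to 18.0% in WT. Summed macrophage and leukocyte markers (6 genes) were lower in KO at both times, at 80.6 to 89.1 against 98.0 to 114.9 CPM at ZT4 and 76.6 to 86.8 against 93.7 to 105.2 CPM at ZT16. The part of either in the Hsd11b1 difference was not tested.

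Hsd11b2 (chromosome 8, 105518755 to 105523988, plus strand) had 77.67, 80.92 and 83.67 CPM in WT ZT4 and 92.70, 102.6 and 106.7 CPM in KO ZT4, without overlap. In the dark phase these were 88.98, 79.53 and 64.85 CPM in WT and 64.51, 102.3 and 102.5 CPM in KO. KO ZT16 replicate 2 was the lowest of all 12 libraries and the other KO libraries lay above WT. The log2 fold change in KO was 0.32 ± 0.16 in the light (adjusted p = 0.315) and 0.21 ± 0.16 in the dark (adjusted p = 0.578) in edgeR's test. Without KO ZT16 replicate 2 it passed at ZT4 (0.32, adjusted p = 0.0388), at ZT16 (0.38, 0.015) and averaged (0.35, 0.00168, against 0.26 ± 0.11 and 0.154 with it). That fit keeps the lowest WT library, at 64.85 CPM. Over the 12 leave-outs the ZT16 value ranged from 0.08 to 0.38 (adjusted p from 0.015 to 0.95, edgeR). The averaged value ranged from 0.20 to 0.35 (adjusted p from 0.00168 to 0.336), and no other leave-out gave a call. Summed principal cell markers (6 genes) were higher in KO at ZT4 (286.9 to 298.8 CPM, against 246.7 to 286.4 CPM in WT) and overlapped at ZT16 (290.3 to 364.3 CPM in KO, 332.9 to 350.1 CPM in WT). In this sum 1 marker alone reached 180.8 CPM, and 0 of the 6 were called at ZT4 or at ZT16 (3.29% and 4.03% of all genes were). At ZT4 the marker Fxyd4 went the other way (20.7 to 22.6 CPM in KO, 23.3 to 29.5 CPM in WT). Summed distal convoluted tubule markers (4 genes) were higher in KO at both times (1123 to 1235 CPM, against 899.9 to 1076 CPM in WT). In that sum 1 marker alone reached 725.3 CPM, and 0 of the 4 were called at ZT4 or at ZT16. The part of the principal cell and distal convoluted tubule markers in the Hsd11b2 values was not tested.

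The ratio of Hsd11b1 to Hsd11b2 per kilobase of exon was 0.851, 1.07 and 0.675 in WT ZT4 and 0.306, 0.282 and 0.270 in KO ZT4. At ZT16 it was 0.718, 0.986 and 1.88 in WT and 0.966, 0.295 and 0.358 in KO. The ratio was thus lower in every KO library than in every WT library except for KO ZT16 replicate 2, which lay within the WT range. Across the 12 libraries the log2 CPM of both genes had a Pearson correlation of -0.85, a description over libraries that share genotype, time and mitochondrial share. Between the times neither gene was called: Hsd11b1 changed by 0.34 ± 0.27 in WT (0.04 without WT ZT16 replicate 5) and 0.59 ± 0.27 in KO (0.21 without KO ZT16 replicate 2), and Hsd11b2 by -0.05 ± 0.16 and -0.17 ± 0.16.

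**Figure D2:**
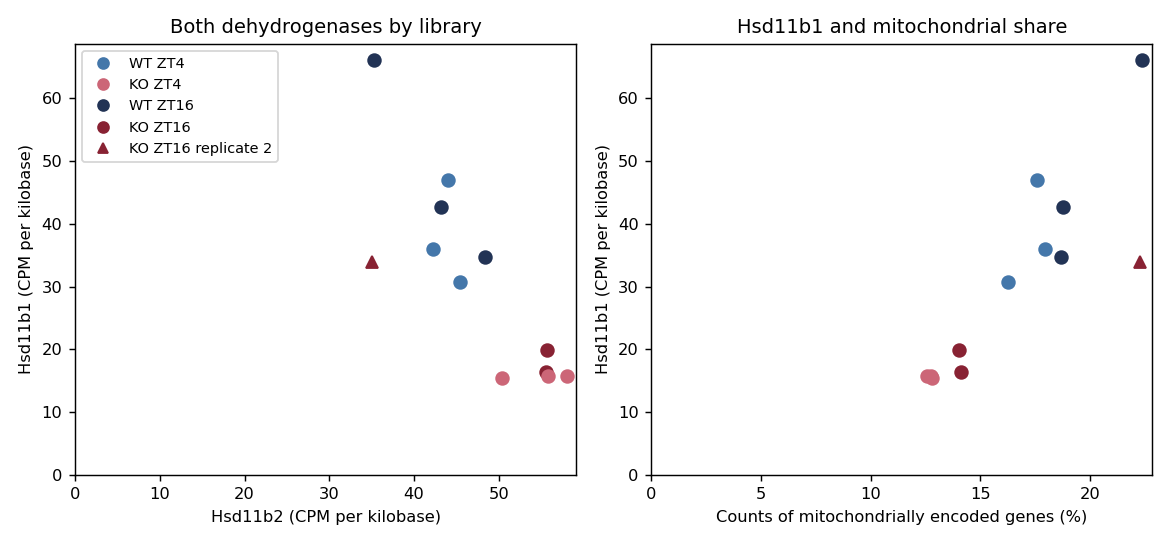
Hsd11b1 in CPM per kb of exon against Hsd11b2 in CPM per kb (left) and against the percentage of counts from mitochondrially encoded genes (right), 1 point per library, coloured by group. KO ZT16 replicate 2 (triangle) sits away from the other KO libraries in both panels, with a mitochondrial share of 22.3% and a ratio of both enzymes of 0.966.

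H6pd, which supplies the NADPH that drives the type 1 dehydrogenase in the endoplasmic reticulum, had 254.1 to 269.8 CPM in WT ZT4 and 211.9 to 222.9 CPM in KO ZT4, without overlap. The log2 difference was -0.27 ± 0.10 (adjusted p = 0.173, and 0.0184 without KO ZT16 replicate 2). At ZT16 the genotypes overlapped (-0.09 ± 0.10). In WT it was lower at ZT16 by -0.33 ± 0.10 (adjusted p = 0.0622, edgeR), again called only without KO ZT16 replicate 2 (0.00301).

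Among the induced genes, Sgk1, Tsc22d3 and Fkbp5 were higher in the dark phase in both genotypes. Sgk1 encodes a kinase that keeps the epithelial sodium channel at the membrane by phosphorylating the ubiquitin ligase NEDD4-2. Tsc22d3 encodes the leucine zipper protein GILZ, and Fkbp5 a co-chaperone that lowers the affinity of the glucocorticoid receptor for its ligand.

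Sgk1 (chromosome 10, 21882184 to 21999903, plus strand) had 102.6, 109.8 and 98.74 CPM in WT ZT4 and 252.0, 297.9 and 190.2 CPM in WT ZT16. In KO it had 107.9, 97.81 and 134.6 CPM at ZT4 and 202.2, 142.3 and 224.3 CPM at ZT16. The times did not overlap in either genotype, while the genotypes overlapped at each time. It rose by 1.25 ± 0.19 in WT (adjusted p = 0.00397) and by 0.74 ± 0.19 in KO (adjusted p = 0.0322), n = 3 against 3 each, in edgeR's test. The WT rise stayed called without each of the 12 libraries. The KO rise was lost without KO ZT4 replicate 2 (0.71, adjusted p = 0.0978), 4 (0.64, 0.129) or 6 (0.88, 0.058). Between genotypes the log2 fold change was 0.13 ± 0.19 at ZT4 and -0.38 ± 0.19 at ZT16 (adjusted p = 0.72 and 0.342).

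The sequence before 1 of the 6 Sgk1 starts in RefSeq carries a full palindromic glucocorticoid response element, and is shown with those of Fkbp5 and Tsc22d3, the other genes called between the times in both genotypes. RefSeq promoters (GRCm38.p6) matched 6 of the 9 genes with 13 windows. Nr3c1, Hsd11b2 and Zbtb16 had no match. The 250 bases before each start were searched on both strands in 32851 windows of all genes. Capitals mark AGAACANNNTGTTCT (in 3 windows, 0.00913%), either arm of it alone, AGAACA or TGTTCT (16.1%) and the E-box CACGTG bound by BMAL1 and CLOCK (6.02%).

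Sgk1, chr10:21993640-21993889, plus strand: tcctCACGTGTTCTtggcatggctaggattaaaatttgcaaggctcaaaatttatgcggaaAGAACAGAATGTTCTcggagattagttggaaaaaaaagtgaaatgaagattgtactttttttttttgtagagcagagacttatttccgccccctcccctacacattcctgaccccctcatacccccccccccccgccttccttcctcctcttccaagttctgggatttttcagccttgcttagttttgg

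Fkbp5, chr17:28486150-28486399, minus strand: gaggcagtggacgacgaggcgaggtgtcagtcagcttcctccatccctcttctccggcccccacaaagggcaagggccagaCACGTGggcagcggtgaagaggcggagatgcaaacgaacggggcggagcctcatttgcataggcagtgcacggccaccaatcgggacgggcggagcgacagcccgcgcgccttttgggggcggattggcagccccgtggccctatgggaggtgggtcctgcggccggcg

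Tsc22d3, chrX:140600660-140600772, minus strand: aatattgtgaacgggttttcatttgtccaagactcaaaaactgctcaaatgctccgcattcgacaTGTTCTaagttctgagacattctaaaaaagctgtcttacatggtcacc

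In the Sgk1 window the full element, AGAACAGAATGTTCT, spans -189 to -175 from the start, and CACGTG at -246 to -241 overlaps TGTTCT at -242 to -237. The Fkbp5 window holds CACGTG at -169 to -164. The Tsc22d3 stretch, the part of 1 of its 3 windows outside annotated exons, holds TGTTCT at -185 to -180, and the other 2 windows hold none of the letters. Of the other Sgk1 windows, 2 hold 1 arm alone, at -195 to -190 and at -13 to -8 from their starts. None of these letters was found in the 250 bases before the Klf9 and Nr3c2 starts. TTATGTAA, the D-box of the clock output factors (0.819% of windows), was found in no window of the 6 genes. ACANNNTGT (5.84%), the core of the element, and AGGTCA (14.0%), the letters bound by ROR and REV-ERB factors, were found elsewhere only in other Sgk1 windows. These are matches of letters and not evidence of binding.

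Tsc22d3 (chromosome X, 140539528 to 140600659, minus strand) had 35.94, 38.15 and 35.08 CPM in WT ZT4 and 116.4, 114.3 and 84.52 CPM in WT ZT16. In KO it had 58.34, 52.41 and 68.61 CPM at ZT4 and 71.62, 91.54 and 97.36 CPM at ZT16. The KO libraries lay above WT at ZT4 and overlapped WT at ZT16, and within KO the times lay only just apart. It rose with time by 1.53 ± 0.15 in WT (adjusted p = 0.000247, called without each of the 12 libraries) and by 0.54 ± 0.15 in KO (adjusted p = 0.0402).

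The KO rise of Tsc22d3 was lost in 10 of the 12 leave-outs (adjusted p from 0.052 to 0.15) and kept only without WT ZT16 replicate 5 or KO ZT16 replicate 2 (0.66, adjusted p = 0.00876). At ZT4 Tsc22d3 was higher in KO by 0.72 ± 0.15 (adjusted p = 0.021, edgeR). That call was lost without WT ZT4 replicate 1 (0.71, adjusted p = 0.0864), 3 (0.75, 0.0711) or 5 (0.69, 0.0734), and without KO ZT4 replicate 2 (0.73, 0.0681) or 6 (0.61, 0.105). At ZT16 the log2 fold change was -0.28 ± 0.15 (adjusted p = 0.386), and averaged over both times 0.22 ± 0.10 (0.184, and 0.0198 without KO ZT16 replicate 2).

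Whether the genotype effect differed between the times was tested with the interaction, for which 3 of all tested genes were called (0.0186%) and 0 of the 9. Of the 9, 1 had an unadjusted p under 0.05 in edgeR's test. That was Tsc22d3, whose knockout effect at ZT16 minus that at ZT4 was -0.99 ± 0.21 (unadjusted p = 0.000425, adjusted p = 0.528). DESeq2 called it (adjusted p = 0.0177), limma voom called 0 of the 9, and without KO ZT16 replicate 2 it was -0.88 (adjusted p = 0.119, edgeR), where 0.0489% of all genes were called. For Sgk1 the value was -0.51 ± 0.26 (unadjusted p = 0.076). By edgeR a smaller rise in KO than in WT was therefore not established for either gene.

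Fkbp5 (chromosome 17, 28399094 to 28517527, minus strand) had 48.18, 51.00 and 45.25 CPM in WT ZT4 and 85.06, 93.71 and 80.77 CPM in WT ZT16. In KO it had 43.23, 51.56 and 44.62 CPM at ZT4 and 60.71, 92.26 and 92.26 CPM at ZT16. All ZT16 libraries lay above all ZT4 libraries, with KO ZT16 replicate 2 the lowest of the ZT16 libraries. The rise was 0.85 ± 0.14 in WT (adjusted p = 0.00736, called without each of the 12 libraries) and 0.81 ± 0.14 in KO (adjusted p = 0.0109, edgeR). The KO rise was lost without KO ZT4 replicate 6 (0.79, adjusted p = 0.0507) and was 0.98 without KO ZT16 replicate 2. Between genotypes it was -0.05 ± 0.14 at ZT4 and -0.08 ± 0.14 at ZT16, neither called.

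Klf9, which encodes a zinc finger transcription factor (chromosome 19, 23141226 to 23168134, plus strand), went the other way in value. It had 82.15, 74.31 and 95.37 CPM in WT ZT4 and 66.91, 68.52 and 72.35 CPM in WT ZT16, without overlap. In KO it had 72.55, 82.78 and 86.95 CPM at ZT4 and 50.42, 74.97 and 77.21 CPM at ZT16, with overlap. The log2 fold change with time was -0.28 ± 0.15 in WT (adjusted p = 0.22, and 0.0328 without KO ZT16 replicate 2) and -0.26 ± 0.15 in KO (adjusted p = 0.218, edgeR). Between genotypes it was -0.06 ± 0.15 at ZT4 and -0.04 ± 0.15 at ZT16.

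Zbtb16 encodes the zinc finger repressor PLZF and was scarce (chromosome 9, 48654297 to 48836222, minus strand). It had 1.73, 1.13 and 1.38 CPM in WT ZT4 and 2.65, 3.56 and 3.85 CPM in WT ZT16. In KO it had 2.09, 3.22 and 1.97 CPM at ZT4 and 2.98, 8.31 and 5.28 CPM at ZT16. WT libraries did not overlap between the times, and at ZT4 the KO libraries lay above WT.

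Zbtb16 rose with time in KO by 1.18 ± 0.32 (adjusted p = 0.0406, edgeR) despite overlapping library values, and this call was lost in 9 of the 12 leave-outs. It was kept without WT ZT16 replicate 5, KO ZT16 replicate 2 (1.47, adjusted p = 0.00365) or KO ZT16 replicate 6. In WT the difference of 1.23 ± 0.35 (adjusted p = 0.0579) passed without KO ZT16 replicate 2 (1.24, 0.00304) and without KO ZT16 replicate 4 (0.029). The genotype difference was 0.78 ± 0.36 in the light (adjusted p = 0.273) and 0.73 ± 0.32 in the dark (adjusted p = 0.28). Averaged over both times it was 0.75 ± 0.24 (adjusted p = 0.0628). Without KO ZT16 replicate 2 the ZT16 difference (1.02, adjusted p = 0.00644) and the averaged one (0.90, 0.0013) passed, where 31.2% and 42.4% of all genes were called. Over the 12 leave-outs the ZT16 difference ranged from 0.29 to 1.02 (adjusted p up to 0.8, edgeR). The averaged one ranged from 0.54 to 0.90 (adjusted p up to 0.167), and no other leave-out gave a call for either.

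**Figure D3:**
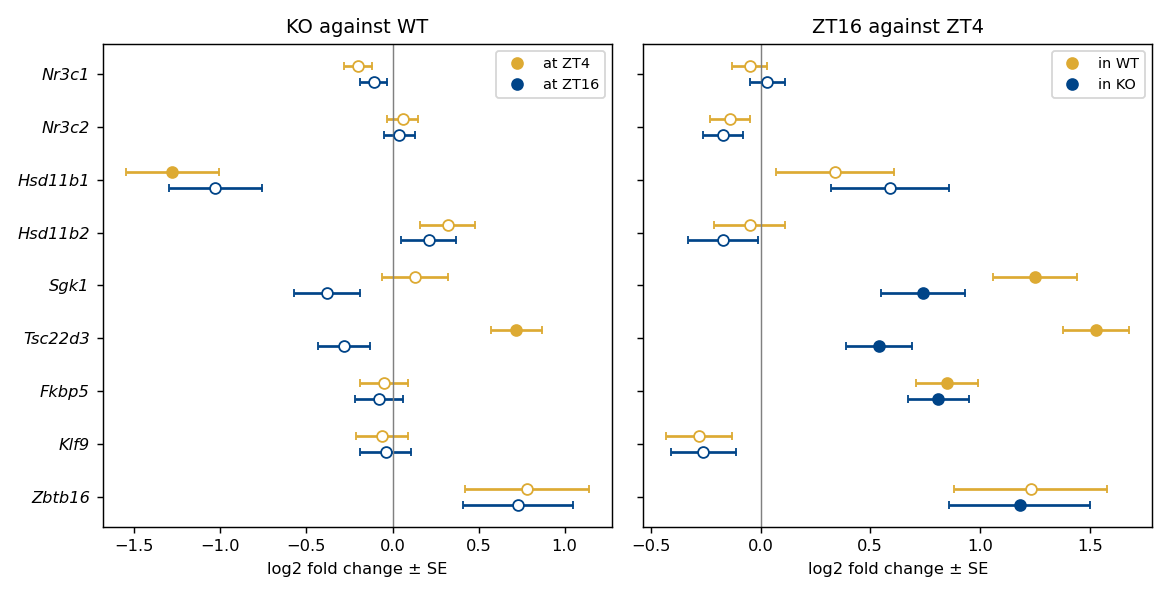
Log2 fold change (horizontal axis) with SE of the 9 genes in the comparisons between genotypes (left) and between times (right). Filled points were called at an adjusted p under 0.05 and open points were not. The rises of Sgk1, Tsc22d3 and Fkbp5 are filled in both genotypes, and Hsd11b1 at ZT4 is the only filled fall.

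Cell markers also moved with time. Summed thick ascending limb markers (4 genes) went from between 5537 and 6145 CPM to between 6486 and 7887 CPM in WT, and from between 4605 and 4745 CPM to between 5649 and 7331 CPM in KO. Summed principal cell markers went from between 246.7 and 286.4 CPM to between 332.9 and 350.1 CPM in WT, and overlapped between the times in KO (286.9 to 298.8 and 290.3 to 364.3 CPM). As single genes, 0 of these 6 were called between the times in WT (6.5% of all genes were) and 1 in KO (10.5%). Other sums were lower at ZT16 without overlap. Proximal tubule markers (6 genes) went from between 9328 and 10282 CPM to between 8372 and 9269 CPM in WT, and from between 9877 and 10085 CPM to between 7308 and 9677 CPM in KO. Podocyte markers (4 genes) went from between 192.8 and 231.7 CPM to between 150.3 and 184.6 CPM in WT, and in KO from at least 235.2 CPM to between 148.1 and 202.6 CPM. As single genes, 0 of the 4 thick ascending limb markers were called in WT and 3 in KO. Of the 6 proximal tubule markers 0 were called in either genotype, and of the 4 podocyte markers 1 in each. The part of these markers in the time differences of the induced genes was not tested.

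Of 25 other genes that glucocorticoids induce in kidney, liver or other tissues, 24 were tested. In WT 5 rose and 1 fell from ZT4 to ZT16 (2.87% of all genes rose), with a median log2 change of 0.39 against -0.01 over all genes. In KO 2 rose and 0 fell (5.27% of all genes rose), with a median of 0.03. Between genotypes, 2 rose and 2 fell at ZT4 (3.29% of all genes were called), and 1 rose and 2 fell at ZT16 (4.03%). Without KO ZT16 replicate 2 these became 8 and 1 in WT (33.5% of all genes called), 3 and 0 in KO (8.0%), 3 and 3 at ZT4 (15.3%), and 1 and 9 at ZT16 (31.2%). For the interaction 0 of the 24 were called with that library and 0 without it (0.0186% and 0.0489% of all genes), so a different change in KO was not established.

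Pck1, the rate-limiting enzyme of gluconeogenesis, had 920.5 ± 83.9 CPM (SD, n = 3) in WT ZT4 and 2557 ± 450 CPM in WT ZT16, and 1057 ± 38.7 and 2003 ± 303 CPM in KO. It rose by 1.47 ± 0.14 in WT (adjusted p = 0.000247) and 0.92 ± 0.14 in KO (adjusted p = 0.00602, edgeR). Sult1a1, a sulfotransferase, rose by 0.88 ± 0.15 in WT and 0.86 ± 0.15 in KO. Glul, glutamine synthetase, rose by 0.76 ± 0.10 in WT and was lower in KO at ZT16 by -0.72 ± 0.10 (503.5 ± 34.0 against 830.7 ± 92.8 CPM). In KO it had 415.7 ± 24.7 CPM at ZT4, and its difference between the times was not called. Cdkn1a, the cell cycle inhibitor p21, was higher in KO at both times, by 1.48 ± 0.16 and 1.58 ± 0.16. Angptl4, an inhibitor of lipoprotein lipase, was lower in KO at ZT16 by -2.05 ± 0.35 (8.28 ± 4.86 against 34.2 ± 2.23 CPM). These calls held without each of the 12 libraries, while those of Cebpb, Cebpd and Mt2 between the times in WT, and of Cebpb, Mt2 and Angptl4 between genotypes at ZT4, were each lost in 4 to 8 of the 12 leave-outs.

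The receptor complex is assembled by chaperones. Of 13 chaperone and co-chaperone genes, 7 rose with time in WT (2.87% of all genes rose) and 8 in KO (5.27% of all genes), and 0 fell. The calls of Hspa8 and Dnaja1 in both genotypes, and of Hsp90aa1 in KO, held in every leave-out. Each other call was lost in at least 1 of the 12 leave-outs, and that of Ppp5c in KO in 11. Their median log2 change was 0.42 in WT and 0.38 in KO, against -0.01 over all genes in each. Hspa8, the constitutive heat shock protein of the assembly machinery, rose by 1.26 ± 0.14 in WT and 1.24 ± 0.14 in KO, from 426.0 ± 36.2 to 1020 ± 134 CPM and from 343.3 ± 20.0 to 809.9 ± 158 CPM. Hsp90aa1, which holds the receptor ready for hormone, rose by 1.02 ± 0.18 in WT (lost without WT ZT4 replicate 5, adjusted p = 0.0526) and 1.11 ± 0.18 in KO. Dnaja1, a cofactor of Hspa8, rose by 0.99 ± 0.10 and 0.77 ± 0.10, and was lower in KO at ZT16 by -0.53 ± 0.10 (adjusted p = 0.00798, edgeR). Fkbp4, whose product replaces that of Fkbp5 on the hormone-bound receptor, rose by 0.42 ± 0.09 and 0.47 ± 0.09, calls lost in 4 and 2 of the 12 leave-outs. Between genotypes 0 chaperones were called at ZT4 (3.29% of all genes were) and Dnaja1 alone at ZT16 (4.03% of all genes). With KO ZT16 replicate 2 left out, 3 were called at ZT4 and 4 at ZT16, all lower in KO, where 15.3% and 31.2% of all genes were called, so the share at ZT16 was near that of all genes.

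**Figure D4:**
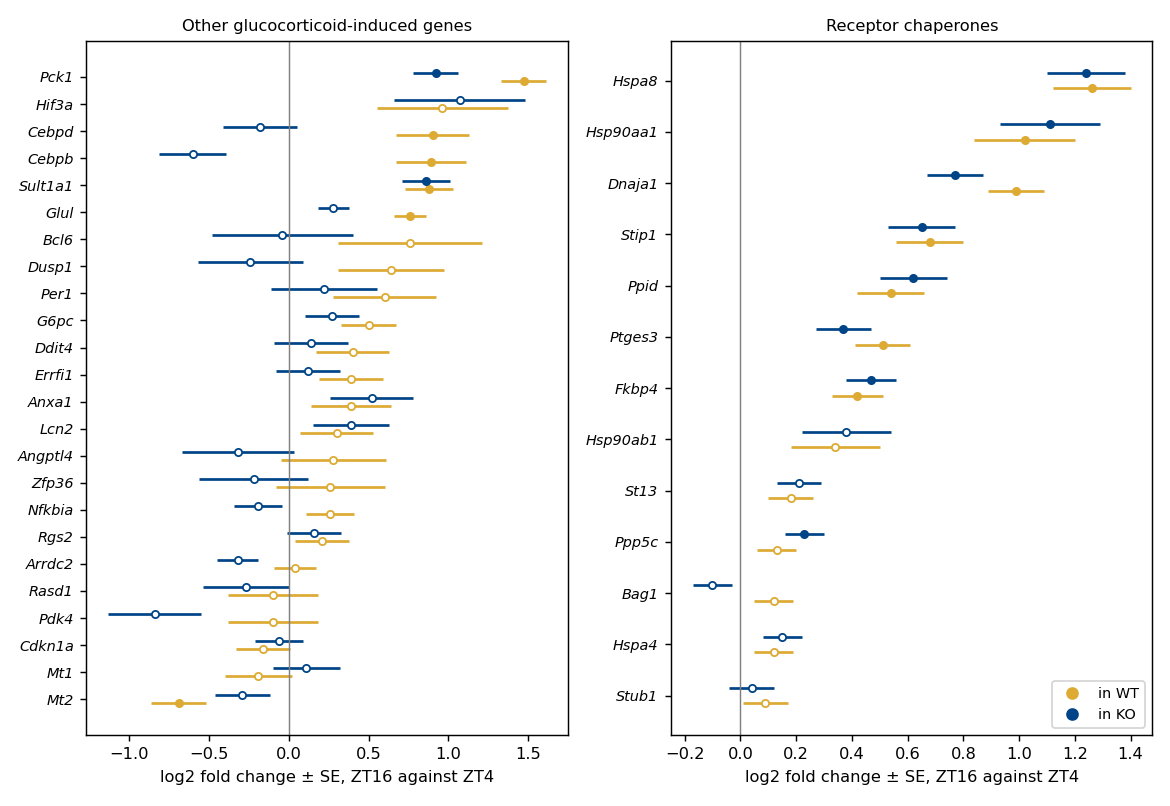
Log2 fold change from ZT4 to ZT16 with SE (horizontal axis) of each tested gene among other glucocorticoid-induced genes (left) and receptor chaperones (right), in WT and KO, with filled points for called genes. In WT 5 induced genes and 7 chaperones are filled to the right of 0, and in KO 2 and 8.

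Among 16 genes of the aldosterone-responsive distal tubule, most of which carry sodium or potassium or regulate that transport, 1 was called lower in KO at each time and 0 higher (3.29% and 4.03% of all genes were called). Averaged over both times 1 rose and 1 fell (11.4% of all genes called). Leaving out KO ZT16 replicate 2, 1 rose and 1 fell at ZT4 (15.3%), 6 rose and 2 fell at ZT16 (31.2%), and 7 and 2 averaged (42.4%). The gene called with all libraries at each time was Ndrg2, known in rat as an early aldosterone-induced gene, at 82.3 ± 4.87 against 116.0 ± 14.2 CPM at ZT4 (log2 -0.50) and 94.3 ± 6.40 against 131.7 ± 10.7 CPM at ZT16 (-0.48). These calls were lost in 5 and 3 of the 12 leave-outs, and the averaged one was lost in 0. Scnn1a, the alpha subunit of the epithelial sodium channel and a known receptor target, had 103.5, 91.78 and 82.13 CPM in WT ZT16 and 78.39, 136.2 and 134.1 CPM in KO ZT16. Its log2 fold change was 0.33 ± 0.18 (adjusted p = 0.415), and 0.54 (0.00422) without KO ZT16 replicate 2, the lowest KO library. Scnn1b, the beta subunit, was called in KO against WT averaged over both times (0.26 ± 0.06, adjusted p = 0.019), a call lost in 4 of the 12 leave-outs. Usp2, a deubiquitinase that acts on the sodium channel, rose with time in WT by 0.65 ± 0.15 (adjusted p = 0.0306, lost without any 1 of the 6 WT libraries) and changed by 0.05 ± 0.15 in KO. Per1, a clock gene that the glucocorticoid receptor also induces, was called in no comparison, with 0.60 ± 0.32 between the times in WT (adjusted p = 0.225).

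For each gene but Nr3c2, the 2 others with the most similar log2 CPM over the 12 libraries were listed, among genes that averaged 5 CPM or more. Tsc22d3 was most like Per2, a clock repressor (r = 0.967), and Noct, a deadenylase-family clock output gene (0.923). Per2 had 9.74 ± 1.45 CPM in WT ZT4, 22.3 ± 1.88 in KO ZT4, 55.6 ± 1.89 in WT ZT16 and 47.5 ± 13.2 in KO ZT16, the order of Tsc22d3. Hsd11b1 was most like Cd36, a fatty acid transporter (0.980), and Tmem237 (0.975). Sgk1 was most like Ccn2 (0.933) and Arl4d (0.912), and Fkbp5 most like Dusp11 (0.971) and Slc25a35 (0.955). Nr3c1 was most like Egfr (0.918) and Prkd3 (0.861), and Hsd11b2 like Ctif and Zbed3 (0.973 each). Klf9 was most like Phlpp2 (0.929) and Tacc2 (0.928), and Zbtb16 like Erp29 (0.930) and Ube2g2 (0.919). Among the 9 genes themselves, Sgk1, Tsc22d3 and Fkbp5 went together (r from 0.82 to 0.88). These correlations run over libraries that share group, depth and composition and carry no test.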

How the data were processed

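Whole-kidney RNA of 12 libraries in 4 groups of 3 was measured. Per the submitters' processing notes, reads were trimmed with cutadapt 1.2.1, aligned to GRCm38 with TopHat2 2.0.9 and counted with HTSeq 0.5.4p3, and the authors used R 3.1.1, edgeR and limma. The deposited values are raw read counts per gene. The library kit marks strand, per the labels, but how HTSeq was set (mode, strand, annotation) is not given in the sources used here. Lines for unassigned reads (no feature 3.50% to 5.96%, ambiguous 0.411% to 0.534%, not unique 30.8% to 43.0%) stayed out of library sizes and tests. GENCODE M21 and a gene name table named 37607 of 38924 IDs and gave the coordinates.

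In R 4.3.3, filterByExpr left 16150 genes, scaled by TMM and tested in 1 fit of 12 libraries with edgeR 4.0.16 quasi-likelihood (8 residual degrees of freedom), with Benjamini-Hochberg adjustment over all of them. SE is the absolute log2 fold change divided by the root of F. CPM is edgeR's count scaled to the TMM library size, and log2 CPM for correlations used a prior count of 2. Alternatives were RLE scaling, no filter, DESeq2 1.42.0, limma voom (3.58.1), only the compared libraries, each library left out and a replicate block.

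The 9 genes and all lists were chosen with earlier results of these data known. Named were the 9, Arntl, per list and comparison up to 4 called genes with the smallest adjusted p, H6pd, Per1, Fkbp4, Scnn1a and Usp2, and the 2 most similar genes of each of the 9 (those of Nr3c2 are not reported here). Motifs were searched in RefSeq promoters, and only sequence outside annotated exons is printed.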

Additional observations from a re-analysis of the deposited data

How the results depend on the processing

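Single genes were followed through the alternatives for the 9 in the comparisons at each time and in each genotype, for Nr3c1, Hsd11b1, Hsd11b2, Tsc22d3 and Zbtb16 averaged, and for Sgk1 and Tsc22d3 in the interaction. Of these 744 values, 671 kept their direction and their side of the threshold, 40 lost and 24 gained a call, and 9 changed sign. The 9 changed sign when 1 library was left out, none of these differences being called: over the leave-outs, Sgk1 ranged from -0.012 to 0.225 and Klf9 from -0.138 to 0.046 between genotypes at ZT4, Nr3c2 from -0.004 to 0.062, Fkbp5 from -0.179 to 0.081 and Klf9 from -0.143 to 0.125 at ZT16. Between the times Hsd11b2 ranged from -0.158 to 0.069 in WT and from -0.27 to 0.019 in KO, and Nr3c1 from -0.013 to 0.07 in KO. Numbers of called genes moved widely. DESeq2 called 1044 at ZT4, 1008 at ZT16, 2149 between the times in WT, 3670 in KO and 18 for the interaction, against 531, 651, 1050, 1691 and 3. With only the compared libraries, where fewer samples enter the fit, these were 2877, 200, 3557 and 36, with no separate value for the averaged comparison and the interaction. Leaving out single libraries gave 228 to 2503 at ZT4, 380 to 5099 at ZT16, 1120 to 6935 averaged, 220 to 5473 in WT, 181 to 3629 in KO and 3 to 8 for the interaction. Each highest count but that in KO came without KO ZT16 replicate 2, and the highest in KO without KO ZT16 replicate 6. KO ZT16 replicate 2 is not among the libraries compared at ZT4 or in WT, and enters those comparisons through the shared filter, scaling and fit. For Hsd11b2 at ZT4, the log2 fold change was 0.32 with and without it, and the SE was 0.16 with it and 0.10 without it. The cause of these shifts was not tested.

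Among the 9 genes, the ZT16 difference of Hsd11b1 passed with no filter (adjusted p = 0.0264), DESeq2 (0.0058) and limma voom (0.0478). The WT difference of Zbtb16 between the times passed with no filter (0.0406), DESeq2 (0.00746) and only the compared libraries (0.00571), and its KO rise was lost with limma voom (0.0535). Averaged over both times, Nr3c1 passed with DESeq2 (0.0327), and Zbtb16 with DESeq2 (0.0201) and no filter (0.0442). With only the compared libraries, Hsd11b2 (0.0113) and Zbtb16 (0.0372) passed at ZT4, and the KO rises of Sgk1 (0.105), Tsc22d3 (0.119), Fkbp5 (0.087) and Zbtb16 (0.14) were lost. Replicate numbers recur at both times, and deviations of same-numbered libraries correlated at 0.054, -0.068 and -0.266 in WT and -0.008, -0.051 and -0.003 in KO. Libraries with different numbers correlated at -0.186 to 0.224 in WT and -0.078 to 0.091 in KO. With 3 libraries in a group, these values cannot tell whether same-numbered libraries share more than a number. With the number as a replicate block, 229 genes were called in WT, 189 in KO and 1 for the interaction, and the KO rises of Tsc22d3 (adjusted p = 0.0657) and Zbtb16 (0.0588) did not pass. Depth limits mainly Zbtb16, the scarcest of the 9.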

Other observations

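Genes that handle steroids in the cell differed between genotypes in a few members. Of 11, 9 were tested, and at each time 1 rose and 1 fell in KO (3.29% of all genes were called at ZT4 and 4.03% at ZT16). Without KO ZT16 replicate 2, 1 rose and 4 fell at ZT4 (15.3% of all genes called), and 1 rose and 3 fell at ZT16 (31.2%). Abcb1a and Abcb1b, which encode the paralogous efflux pumps that export glucocorticoids among many drugs, went in opposite directions. Abcb1b had 8.89 ± 0.381 CPM (SD, n = 3) in WT ZT4 and 18.4 ± 3.04 CPM in KO ZT4, and 9.21 ± 2.29 and 18.7 ± 1.61 CPM at ZT16. It rose by 1.05 ± 0.16 and 1.02 ± 0.16 (adjusted p = 0.00365 and 0.00338, edgeR), in every leave-out. Abcb1a fell by 0.77 at ZT4, a call lost in 5 of the 12 leave-outs, and by 0.91 at ZT16, from 7.43 ± 1.70 to 3.95 ± 0.105 CPM. As close paralogs they may share reads, and how shared reads were counted is not stated. Srd5a2, a steroid 5-alpha-reductase, was lower in KO averaged over both times by -1.12 ± 0.22 (adjusted p = 0.00669, edgeR), in every leave-out.

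Of 12 receptor coactivators and corepressors, 0 were called by edgeR in any of the 6 comparisons with all libraries (0.0186% to 11.4% of all genes were). From 0 to 5 of them had an unadjusted p under 0.05 in edgeR's test. DESeq2, which called more genes than edgeR at each time, called 3 averaged over both times and 0 otherwise, and limma voom 0. The shares above are edgeR's, and neither these 3 nor the unadjusted counts have a share of all genes beside them. Without KO ZT16 replicate 2, which stands apart from its group, 4 at ZT4, 9 at ZT16 and 10 averaged were called, all higher in KO, where 15.3%, 31.2% and 42.4% of all genes were called. Their median log2 fold change at ZT16 was 0.19 with that library and 0.35 without it.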
